A study of Mus musculus with 8 samples.

Results

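Glycolysis in white adipocytes was described here through 10 genes of the cytosolic pathway from glucose to lactate: Hk1, Hk2, Pfkl, Pfkp, Aldoa, Gapdh, Pgk1, Eno1, Pkm and Ldha. They were chosen by name, and each matched 1 of the 30387 genes of the deposited table. RNA came from white adipocytes isolated from the epididymal fat of mice, in 4 groups with 2 libraries each. Ad-Yap/Taz-KO mice, called knockout mice here, carry floxed Yap and Taz alleles and Cre under the adiponectin promoter (Adipoq-Cre), so that the co-activators YAP and TAZ are deleted where that promoter is active. The comparison group was wild-type littermates (WT), whose alleles the methods do not spell out for this line. For tamoxifen-treated animals the methods name littermates with floxed Yap and Taz as controls. Both genotypes received standard diet (SD, normal chow in the labels) or a Western-type high-fat diet (HFD) for 4 weeks. The methods describe male mice and start the diets at 6 weeks of age, whereas the series text gives week 5. The labels call the libraries of a group repeats of a mouse of that kind, and the study counts 2 mice per group, so p-values measure the spread between these few samples.

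Glycolysis splits glucose into pyruvate in the cytosol and yields ATP and NADH, and lactate dehydrogenase returns the NADH to NAD+. Hexokinases trap glucose as glucose 6-phosphate, phosphofructokinases commit it to the pathway, and pyruvate kinase catalyses the last ATP-yielding step. In white adipocytes, insulin opens the pathway mainly through the glucose carrier GLUT4 (Slc2a4). Its intermediates feed glycerol 3-phosphate for triglyceride synthesis and pyruvate for fatty acid synthesis. Hypoxia-inducible factor 1 (HIF-1), whose binding sites hold the core ACGTG, is known to drive many of these genes, and the TEAD factors through which YAP and TAZ reach DNA bind the core GGAATG.

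The stretches of 250 bases before the transcription start are shown for the starts whose stretch held one of these cores, or the E-box CACGTG, and overlapped no annotated exon. They are the RefSeq sequences of mouse build GRCm38.p6, written 5′ to 3′ on the strand of the gene, with the motif letters of either strand in capitals.
Hk2, chr6:82774455-82774704, minus strand: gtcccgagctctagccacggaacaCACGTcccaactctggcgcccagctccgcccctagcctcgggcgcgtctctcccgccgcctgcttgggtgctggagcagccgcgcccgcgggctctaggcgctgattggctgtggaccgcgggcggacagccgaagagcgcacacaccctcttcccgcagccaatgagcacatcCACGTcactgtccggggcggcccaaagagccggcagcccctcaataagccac
Aldoa, chr7:126799255-126799504, minus strand: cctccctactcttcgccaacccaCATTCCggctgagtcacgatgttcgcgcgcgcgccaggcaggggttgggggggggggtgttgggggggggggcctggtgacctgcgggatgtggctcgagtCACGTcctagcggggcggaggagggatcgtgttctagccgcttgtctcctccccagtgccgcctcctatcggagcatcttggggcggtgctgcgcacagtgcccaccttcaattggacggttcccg
Pgk1, chrX:106186850-106187099, plus strand: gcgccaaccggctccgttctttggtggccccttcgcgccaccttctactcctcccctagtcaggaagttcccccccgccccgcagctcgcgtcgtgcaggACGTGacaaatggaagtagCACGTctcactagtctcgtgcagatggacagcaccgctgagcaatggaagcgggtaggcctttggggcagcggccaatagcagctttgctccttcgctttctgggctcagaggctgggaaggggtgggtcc
Ldha, chr7:46845554-46845803, plus strand: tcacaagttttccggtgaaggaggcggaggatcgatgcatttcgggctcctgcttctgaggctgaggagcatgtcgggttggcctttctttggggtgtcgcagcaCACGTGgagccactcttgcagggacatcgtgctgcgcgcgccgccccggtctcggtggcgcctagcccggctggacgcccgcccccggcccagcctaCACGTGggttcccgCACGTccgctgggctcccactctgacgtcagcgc
RefSeq gave 17 starts for the 10 genes. Over the whole window of 300 bases, from 250 before to 50 after the start, ACGTG on either strand was found at 8 starts of 7 genes, while 19.6% of all 32851 promoters hold it. The 2 of these starts that belong to Aldoa are overlapping windows with the same match. CACGTG, which contains ACGTG on both strands, was found at 1 start, against 7.15% of all promoters. This Ldha start holds 2 of these E-boxes, which count within its 5 matches to ACGTG. The TEAD core GGAATG was found at 3 starts of Aldoa and Eno1, against 14.7% of all promoters, and 2 of these are overlapping windows of Eno1. None of the 3 motifs was found at the starts of Pfkl and Pfkp. These are matches of letters and were not measured as binding.

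The values in the table, called normalized counts here, come from a normalized matrix of whole numbers, whose scaling method is not given in the sources used here. They summed to between 14890264 and 20994246 per library, and 1 read was worth an estimated 0.795 to 1.14 of them. Wwtr1, which encodes TAZ, was between 1957 and 2707 in the 4 knockout libraries and between 4743 and 7121 in the 4 WT libraries. Its log2 difference was -1.24 on SD (adjusted p = 0.00097 by limma) and -1.56 on HFD (adjusted p = 3.1e-05). Yap1 was between 1549 and 2068 in knockout and between 2333 and 2776 in WT. Yap1 was lower on SD (log2 -0.70, adjusted p = 0.024 by limma) and missed the limit for a call on HFD (log2 -0.42, adjusted p = 0.059). The 2 WT libraries on HFD stood closest to each other, with a median difference of 0.254 (log2) between replicates against 0.304 to 0.415 in the other groups. The 8 adipocyte markers summed to between 91446 and 365550, and none of them was at 0 in all libraries. The 10 macrophage markers summed to between 3271 and 5502 in the 4 WT libraries and to between 19285 and 34945 in the 4 knockout libraries. In bulk RNA, fewer cells of a type and less RNA per cell cannot be told apart. Summed markers of fibroblasts and progenitors ranged from 21210 to 75556, of endothelial cells from 11807 to 28222, of erythroid cells from 366 to 1675, of skeletal muscle from 146 to 2280, of mesothelial cells from 167 to 673 and of lymphocytes from 41 to 291. The 3 measured epididymis markers summed to at most 22.

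The level of each enzyme was compared per kilobase of merged exons in WT mice on SD, as normalized counts per kilobase (mean ± SD, n = 2). Aldoa, which encodes the aldolase that splits fructose bisphosphate, stood at the top with 3397 ± 55.6, ahead of Hk2, the insulin-regulated hexokinase of fat and muscle, with 2140 ± 92.6, and of Ldha, the muscle-type lactate dehydrogenase subunit, with 1882 ± 170. Hk2 and Ldha followed each other closely, with library values of 2205 and 2074 for Hk2 and of 1762 and 2002 for Ldha. Pkm followed with 552 ± 53.2, Gapdh with 357 ± 2.57, Eno1 with 218 ± 4.21 and Pfkl with 181 ± 2.33. Pfkp with 116 ± 10.7 and Hk1 with 113 ± 17.2 overlapped, as did Hk1 and Pgk1 with 92.9 ± 16.1. Aldoa stood first in all 4 groups, at 6318 ± 31.8 in WT and 4646 ± 2303 in knockout mice on HFD. In WT mice on HFD, Ldha with 2224 ± 29.5 stood above Hk2 with 1288 ± 1.3, and Hk1 was last with 85.6 ± 9.2. In knockout mice on HFD Hk1 stood at 193 ± 27.5 and Pfkl was last with 147 ± 54.7, although Hk1, Pfkp, Pgk1 and Pfkl lay close together there.

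This order is limited by the length used and by sequences that the genes share with others. Per kilobase of the longest coding transcript in WT mice on SD, Aldoa stayed first with 6384. Ldha with 3432 then stood above Hk2 with 2317, and Gapdh was at 1040, against 357 per kilobase of merged exons. Reads aligned to several places had been excluded before deposit, and Gapdh, Pgk1 and Eno1 share much of their sequence with other genes. Of the 75-base windows of the longest coding transcript, 80.31% were also found in transcripts of other genes for Gapdh, 67.5% for Pgk1 and 65.44% for Eno1. For Pkm it was 19.59%, for Pfkp 16.56%, for Ldha 5.227%, for Hk1 1.974% and for Aldoa 1.492%, and no window of Hk2 or Pfkl was shared. The windows of Gapdh matched 121 other genes, of which 114 are pseudogenes. The 102 of these pseudogenes that are in the table summed to between 450 and 536 per library, against 1337 to 2125 for Gapdh itself. Divided by the number of windows found in no other gene, a length chosen after seeing the data, the level of Gapdh in WT mice on SD was 5575 per kilobase and took second place behind Aldoa with 6806, ahead of Ldha with 3775 and Hk2 with 2348. The same measure gave 1738 for Eno1, 1457 for Pkm, 458 for Pfkp, 366 for Pgk1, 330 for Pfkl and 234 for Hk1.

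**Figure D1:**
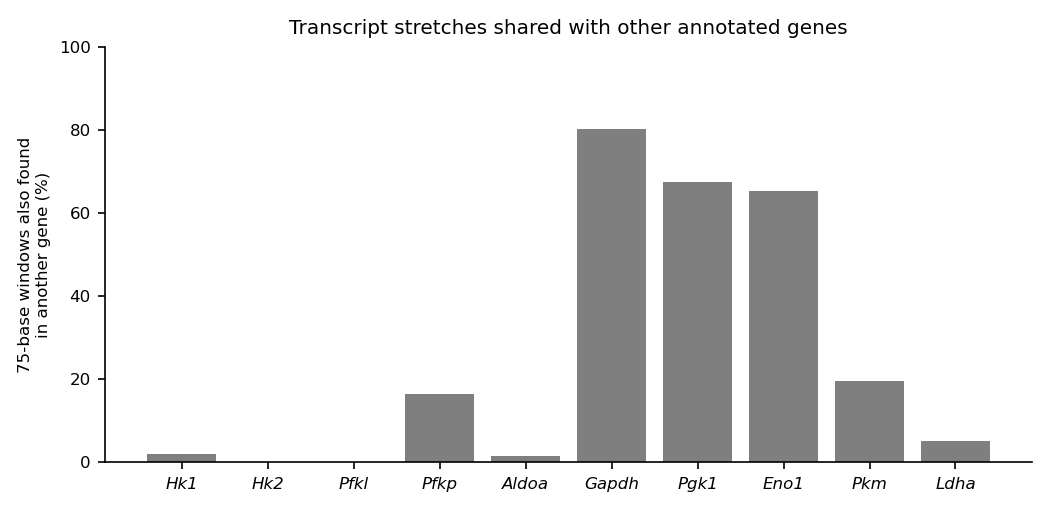
Share of the 75-base windows of each enzyme's longest coding transcript that also occur in transcripts of another annotated gene, in percent. The bar of Gapdh reaches 80.31%, those of Pgk1 and Eno1 lie at 67.5% and 65.44%, and Hk2 and Pfkl are at 0.

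The first comparison asked how loss of YAP and TAZ in adipocytes bears on the enzymes under HFD. Of the 10 enzymes, Hk1 rose, Pfkl, Eno1 and Ldha fell, and 6 were not called. A gene was called at an adjusted p of at most 0.05 (limma, Benjamini-Hochberg over the 18800 genes tested) and an absolute log2 fold change of at least 0.59. All 10 enzymes passed the filter on low values. Over all genes tested, 32.2% were called in this comparison, 17.1% higher and 15.1% lower, so that 4 of 10 is near the background. The 3213 higher and 2840 lower genes became 4622 and 1365 when libraries were scaled to the same total. The median log2 fold change of the 10 enzymes was -0.30, against 0.095 over all genes tested. Among the 12093 genes whose mean reached 50, as that of all 10 enzymes did, the median was -0.142, with 2308 called higher and 2760 lower.

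Hk1, the broadly expressed hexokinase that binds to mitochondria (ENSMUSG00000037012, chromosome 10, 62268855 to 62379908, minus strand), had normalized counts of 786 and 675 in WT mice on HFD and of 1483 and 1815 in knockout mice on HFD. The groups did not overlap, and the mean was 2.25-fold higher in knockout mice (log2 fold change 1.17, SE 0.22, adjusted p = 0.0015 by limma). The call held in each of 13 other settings and without each of the 8 libraries in turn, with log2 values between 0.88 and 1.56. Hk2, the other hexokinase of the group (ENSMUSG00000000628, chromosome 6, 82725025 to 82774454, minus strand), had 7692 and 7681 in WT and 7727 and 5810 in knockout mice on HFD. Its groups overlapped, and its log2 fold change of -0.20 had an SE of 0.19 and took the opposite sign when libraries were scaled to the same total (0.19).

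Pfkl, the liver-type phosphofructokinase subunit (ENSMUSG00000020277, chromosome 10, 77986947 to 78010083, minus strand), had 1833 and 1990 in WT and 1239 and 723 in knockout mice on HFD. Both knockout libraries lay below both WT libraries, with a log2 fold change of -1.01 (SE 0.22, adjusted p = 0.0037 by limma). The second knockout library on HFD was the lower, and without it the log2 value was -0.62, still called. Pfkp, the platelet-type subunit (ENSMUSG00000021196, chromosome 13, 6579768 to 6648777, minus strand), had 1970 and 2014 in WT and 2330 and 2423 in knockout mice, with a log2 fold change of 0.25 (SE 0.17, adjusted p = 0.26 by limma). Its groups did not overlap, yet the difference was not called. Pitrm1 on the opposite strand overlaps 5.582% of the exon bases of Pfkp, and whether the counting used strand is not given in the sources used here.

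Aldoa (ENSMUSG00000030695, chromosome 7, 126795234 to 126800751, minus strand) had 18327 and 18458 in WT mice on HFD and 18266 and 8784 in knockout mice. One knockout library was level with WT and the other was far below, and the log2 fold change of -0.54 had an SE of 0.28 (adjusted p = 0.15 by limma). Gapdh, the dehydrogenase that forms 1,3-bisphosphoglycerate (ENSMUSG00000057666, chromosome 6, 125161715 to 125166467, minus strand), had 2093 and 2125 in WT and 1860 and 1360 in knockout mice. Both knockout libraries were below WT, at a log2 fold change of -0.41 (SE 0.17, adjusted p = 0.082 by limma). Gapdh also served as the reference transcript of the RT-PCR measurements in the study's methods. Pgk1, the first ATP-forming kinase (ENSMUSG00000062070, chromosome X, 106187100 to 106203699, plus strand), had 300 and 394 in WT and 375 and 336 in knockout mice, so that its groups overlapped (log2 fold change 0.05, SE 0.24).

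Eno1, the ubiquitous enolase (ENSMUSG00000063524, chromosome 4, 150236721 to 150248879, plus strand), had 2507 and 2668 in WT and 1775 and 940 in knockout mice on HFD. Both knockout libraries lay below WT, with a log2 fold change of -1.0 (SE 0.23, adjusted p = 0.0053 by limma). The call was lost without the second WT library on HFD (adjusted p = 0.055 by limma) and without the second knockout library on HFD (log2 -0.54). Pkm, whose transcripts encode the pyruvate kinases M1 and M2 (ENSMUSG00000032294, chromosome 9, 59656368 to 59679375, plus strand), had 3875 and 3659 in WT and 5840 and 3998 in knockout mice. These groups did not overlap, and the difference was not called (log2 0.36, SE 0.18, adjusted p = 0.14 by limma). With libraries scaled to the same total, Pkm and Pfkp were called higher, and the split became 3 higher and 2 lower.

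Ldha (ENSMUSG00000063229, chromosome 7, 46841475 to 46855627, plus strand), whose upstream stretch with 2 E-boxes is printed above, had 7293 and 7431 in WT and 5734 and 3810 in knockout mice on HFD. Both knockout libraries lay below WT, with a log2 fold change of -0.66 (SE 0.19, adjusted p = 0.021 by limma). The call was lost in 5 of 13 other settings: without a filter on low values, with the WT libraries on HFD averaged, and when libraries were scaled to the same total (-0.27), by upper quartile (-0.28) or by quantiles (-0.29). It was also lost without either WT library on HFD, and without the second knockout library on HFD (-0.36). Scaling to the same total moved the median of all genes in this comparison from 0.095 to 0.476.

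**Figure D2:**
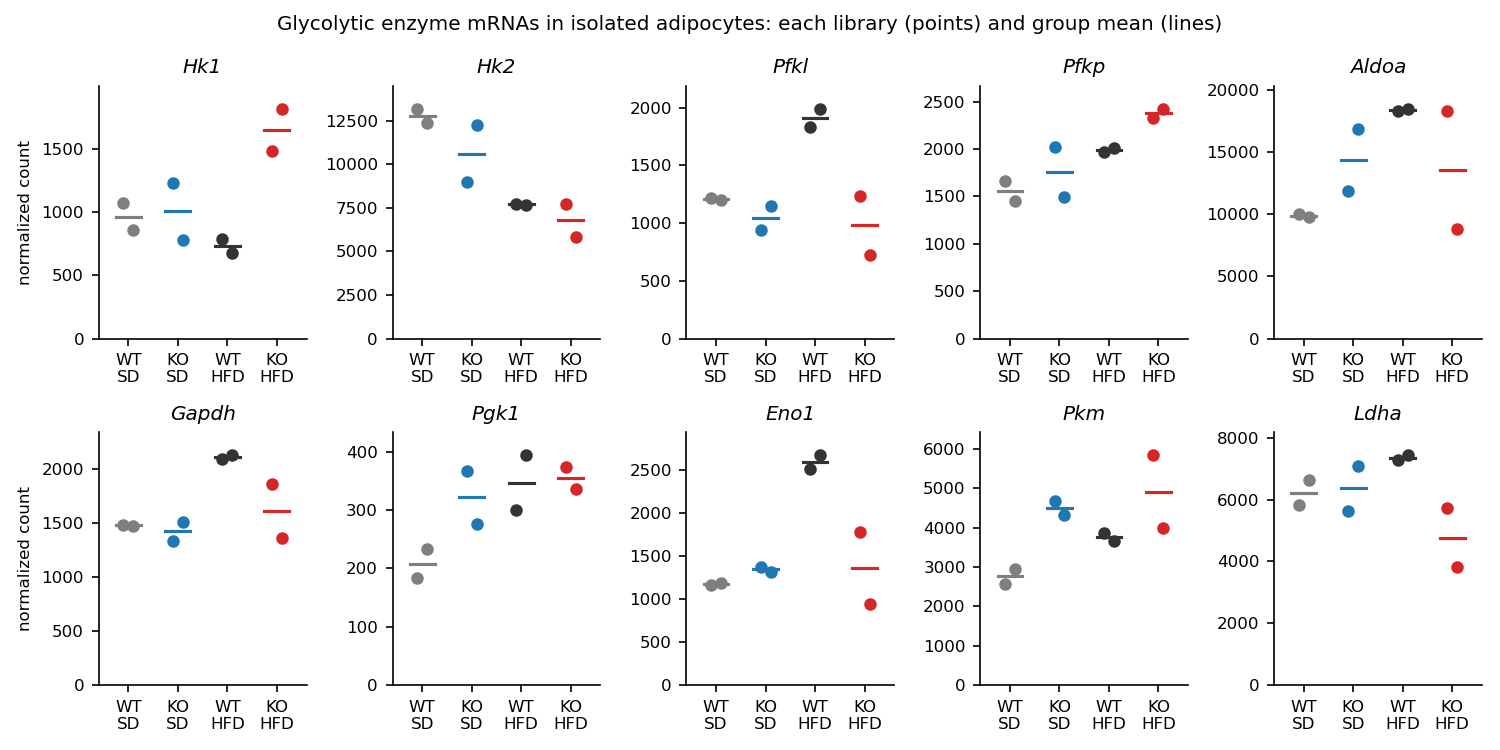
Normalized counts of the 10 enzymes, with 1 point per library, a line at the mean of each group of 2, and axes that start at 0. The 2 knockout libraries on HFD (KO HFD) lie above both WT libraries on HFD for Hk1 and below both for Pfkl, Eno1 and Ldha, and they lie far apart for Aldoa, at 18266 and 8784.

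Cell type markers also differed between these groups. On HFD, 7 of the 8 adipocyte markers fell in knockout mice, with sums of 365550 and 357800 in WT and of 182534 and 91446 in knockout libraries. All 10 macrophage markers rose, from sums of 3271 and 3323 to 34945 and 31920. Of the fibroblast and progenitor markers, 5 of 7 rose, from sums of 21210 and 21567 to 67602 and 75556, as did 2 of 5 lymphocyte, 2 of 5 erythroid and 1 of 6 endothelial markers. The second knockout library on HFD had the lowest adipocyte marker sum of all 8 libraries. It also had the lowest value of all for Pfkl, Aldoa, Eno1, Ldha and Hk2, and the highest for Hk1 and Pfkp. The first knockout library on HFD had an adipocyte marker sum below both WT libraries on HFD. Yet its mean centred log2 value of the 10 enzymes, 0.23, was the highest of all 8 libraries. The part of these marker shifts in the enzyme differences was not tested.

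**Figure D3:**
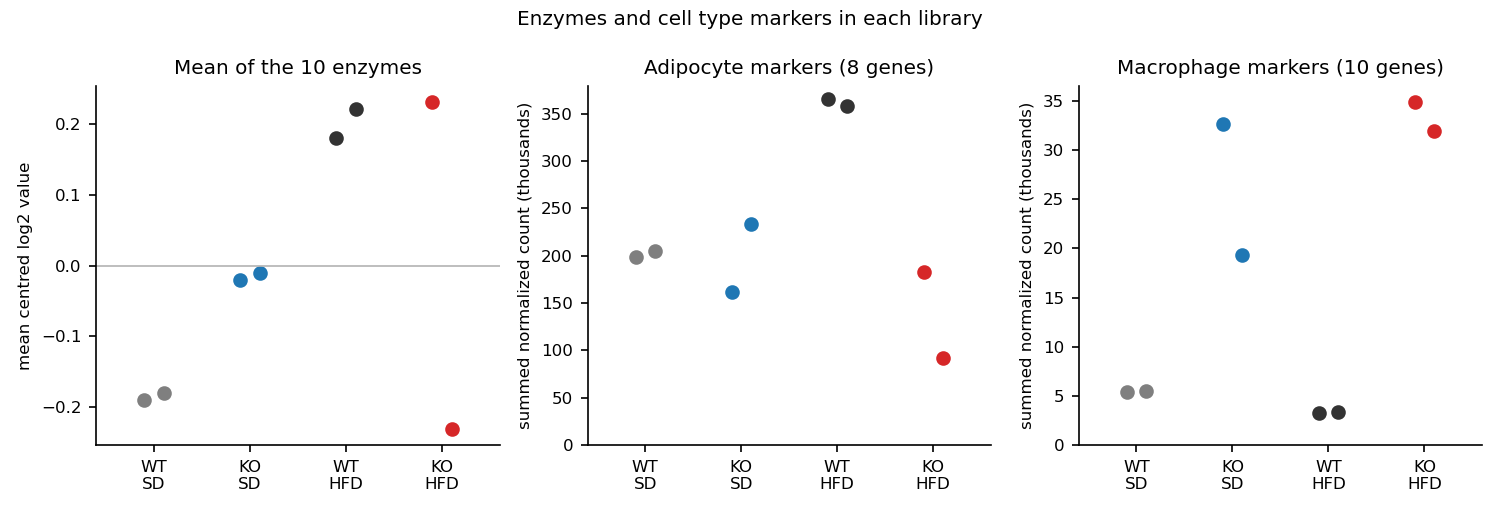
Mean centred log2 value of the 10 enzymes (left), and summed normalized counts of adipocyte markers (middle) and macrophage markers (right), with 1 point per library. The 2 knockout libraries on HFD lie at 0.23 and -0.23 on the left, and the lower of them also has the lowest adipocyte marker sum, 91446. The higher of them has a sum of 182534, below both WT libraries on HFD.

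On SD, the same comparison asked what loss of YAP and TAZ did without the dietary load. Of the 10 enzymes only Pkm was called, which rose 1.64-fold in knockout mice. Its normalized counts were 2574 and 2950 in WT and 4685 and 4334 in knockout libraries, without overlap (log2 fold change 0.71, SE 0.18, adjusted p = 0.041 by limma). This call was lost in 5 of 13 other settings, among them no filter on low values (adjusted p = 0.15) and a pseudocount of 0.1 (adjusted p = 0.059), and without any 1 of the 4 libraries on SD or the 2 WT libraries on HFD. Over all genes tested, 4.71% were called, 3.21% higher and 1.5% lower, and upper-quartile scaling turned 604 higher and 282 lower genes into 455 and 442. In GENCODE vM21, Pkm shares 15.34% of its exon bases with the gene Gm49759 on the same strand. The authors left out reads over several genes, and whether their annotation held Gm49759 was not checked.

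The other 9 enzymes had log2 fold changes between -0.28 and 0.62 on SD. Pgk1 had 183 and 234 in WT and 367 and 277 in knockout libraries, and Aldoa had 10004 and 9775 against 11849 and 16868. The groups of Pgk1 and Aldoa did not overlap, nor did those of Pfkl, Hk2 and Eno1. None of these was called (adjusted p = 0.20 for Pgk1 and 0.37 for Aldoa by limma). Hk1, which rose on HFD, had 1068 and 861 in WT and 1233 and 780 in knockout libraries on SD, with 1 knockout library above and 1 below both WT libraries. Pfkl had 1219 and 1197 in WT and 945 and 1149 in knockout libraries. Hk2 was 13162 and 12380 in WT and 8957 and 12258 in knockout libraries, and its log2 difference of -0.28 was not called (adjusted p = 0.48 by limma). Eno1 had 1157 and 1189 against 1373 and 1316, Ldha had 5831 and 6628 against 5644 and 7097, Gapdh had 1485 and 1470 against 1337 and 1507, and Pfkp had 1659 and 1456 against 2018 and 1498. On SD, 9 of the 10 macrophage markers also rose in knockout mice, with sums of 5435 and 5502 in WT and of 32676 and 19285 in knockout libraries, and none of the 8 adipocyte markers was called. The skeletal muscle markers summed to 193 and 146 in WT and to 1455 and 2280 in knockout libraries on SD, with 1 of 6 tested called higher and 0 lower. Most of this sum was Acta1, with 97 and 101 in WT and 1359 and 2207 in knockout libraries, whereas Mylpf had 12 and 18 against 1 and 1. The part of these markers in the rise of Pkm was not tested.

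**Figure D4:**
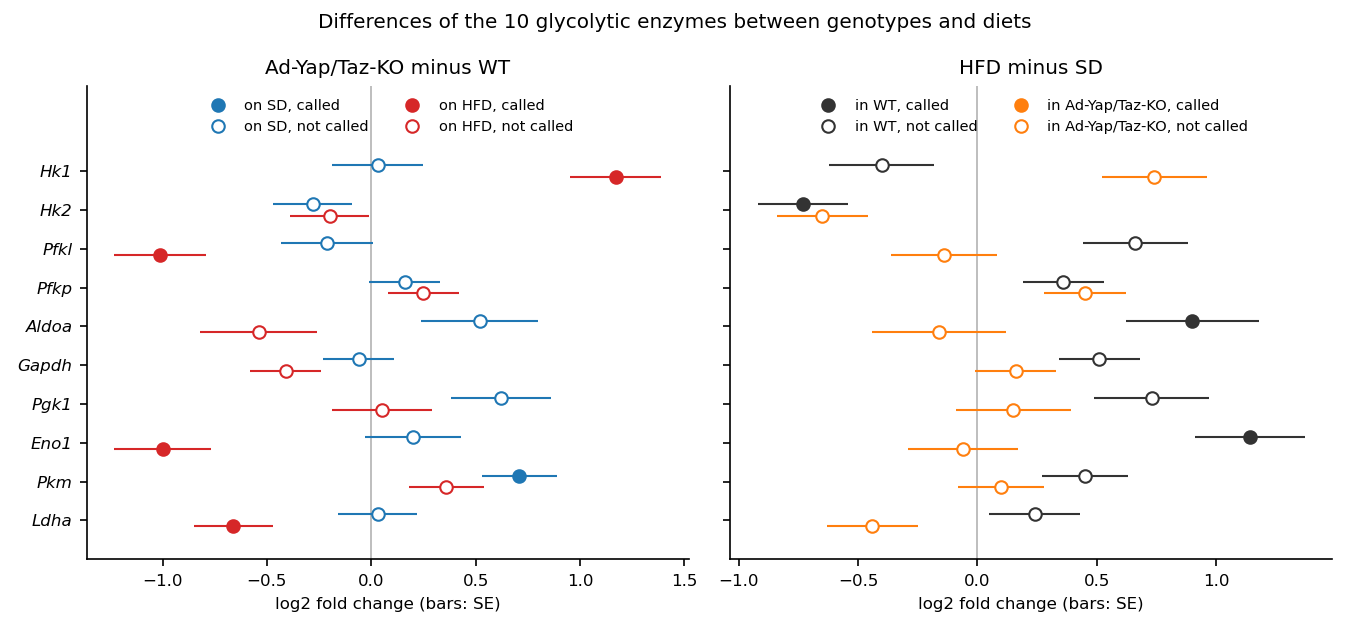
Log2 fold changes of the 10 enzymes with their SE (bars) from limma, between genotypes on each diet (left) and between diets in each genotype (right), with filled points for called differences. Hk1 at 1.17, Pfkl at -1.01, Eno1 at -1.0 and Ldha at -0.66 are called between genotypes on HFD, and no point is filled for the diets in knockout mice.

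The diets were then compared within each genotype. In WT mice Eno1 and Aldoa rose on HFD and Hk2 fell, and the other 7 enzymes were not called. Of all genes tested 18.0% were called, 8.74% higher and 9.22% lower, beside 3 of 10 enzymes. The 1643 higher and 1734 lower genes became 469 and 3569 at the same total. The median log2 difference of the enzymes was 0.48 and that of all genes -0.078. Eno1 rose 2.2-fold, from 1157 and 1189 on SD to 2507 and 2668 on HFD (log2 1.14, SE 0.23, adjusted p = 0.0067 by limma). Aldoa rose 1.86-fold, from 10004 and 9775 to 18327 and 18458 (log2 0.90, SE 0.28, adjusted p = 0.039 by limma). Hk2 fell from 13162 and 12380 to 7692 and 7681 (log2 -0.73, SE 0.19, adjusted p = 0.018 by limma). In all 3 genes the groups did not overlap, and the WT libraries on HFD were the closest replicate pair (median log2 difference 0.254).

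These calls rested on few libraries. Leaving out a WT library, or averaging those on HFD, left 1 sample in a group, and calls over all genes then fell as well. The share of 18.0% over all genes does not hold for such fits, so the loss of calls was not particular to the enzymes. Without the first WT library on SD, or without either WT library on HFD, none of the 10 enzymes was called, and without the second WT library on SD Eno1 alone was. With the WT libraries on HFD averaged to 1 sample none was called. Aldoa was called in 6 of 13 other settings, Hk2 in 11 and Eno1 in 12. Scaling to the same total moved the median of all genes from -0.078 to -0.481. On that scale Eno1 was called higher (0.73), Hk1 and Hk2 lower (-1.15 for Hk2), and Aldoa was at 0.48 without a call.

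Among the enzymes not called in WT mice, Pgk1 rested at 183 and 234 on SD and 300 and 394 on HFD (log2 0.73, adjusted p = 0.051 by limma), Gapdh at 1485 and 1470 against 2093 and 2125 (log2 0.51, adjusted p = 0.051) and Pfkl at 1219 and 1197 against 1833 and 1990 (log2 0.66, adjusted p = 0.053). Their groups did not overlap, and each p lay just outside the limit. Pgk1 and Pfkl were called with the higher filter, a mean of at least 50. Pkm, at 2574 and 2950 against 3875 and 3659, had a log2 difference of 0.45 (adjusted p = 0.094 by limma), and Ldha, at 5831 and 6628 against 7293 and 7431, one of 0.24 that took the opposite sign when libraries were scaled to the same total (-0.17). Hk1 had a log2 difference of -0.40 (adjusted p = 0.22 by limma). In the same comparison 9 of the 10 macrophage markers fell, 2 of the 8 adipocyte markers rose, and 3 of 7 fibroblast and progenitor, 3 of 6 endothelial, 3 of 5 erythroid and 2 of 5 lymphocyte markers fell. The part of these markers in the enzyme differences was not tested.

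In knockout mice none of the 10 enzymes was called between HFD and SD (limma), with log2 differences from -0.65 for Hk2 to 0.74 for Hk1 and a median of 0.02. Over all genes tested 1.07% were called, 0.383% higher and 0.691% lower (72 and 130 genes, and 274 and 96 by upper quartile), and 2905 genes had an unadjusted p under 0.05. Hk1 was 1233 and 780 on SD and 1483 and 1815 on HFD (adjusted p = 0.13 by limma), and Hk2 was 8957 and 12258 against 7727 and 5810 (adjusted p = 0.12). Leaving out the first knockout library on SD or on HFD brought calls among the enzymes, and calls over all genes rose as well. These fits leave 1 library in a group. Aldoa, the enzyme with the widest spread here, was 11849 and 16868 on SD and 18266 and 8784 on HFD.

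The interaction compared the genotype difference on HFD with that on SD. It was called for Eno1, where the effect on HFD minus that on SD was -1.20 (log2, SE 0.33, adjusted p = 0.027 by limma), and for Hk1, where it was 1.14 (SE 0.31, adjusted p = 0.027). Of all genes tested 17.4% were called, 8.69% higher and 8.73% lower, and at the same total the 1633 higher and 1641 lower genes became 2611 and 617. The Eno1 interaction was lost in 5 of 12 other settings, the 3 other scalings among them, with values between -1.59 and -0.66. That of Hk1 was lost in 3 of 12, with no scaling among them and values between 0.83 and 1.68. Neither was called without either WT library on SD, either WT library on HFD or the second knockout library on SD, and that of Hk1 was also lost without the second knockout library on HFD (adjusted p = 0.083). Aldoa (-1.05, adjusted p = 0.079 by limma), Pfkl (-0.80, adjusted p = 0.094) and Ldha (-0.68, adjusted p = 0.10) missed the limit, so that a diet-dependent effect was not shown for them.

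Other enzymes of the pathway were measured beside these. Of 17 other enzymes and isozymes, 15 passed the filter. In knockout mice on HFD the isozymes Hk3 and Eno2 were among those that rose, and 3 fell. Over all genes tested 17.1% were called higher and 15.1% lower in this comparison. Hk3, a hexokinase abundant in myeloid cells, had 32 and 24 in WT and 1395 and 966 in knockout libraries on HFD (log2 5.34, SE 0.28, adjusted p = 6.8e-08 by limma). On SD it had 117 and 108 in WT and 926 and 644 in knockout libraries (log2 2.77), and its 4 knockout values were far above all 4 WT values. Eno2, the enolase known from neurons, had 25 and 52 in WT and 603 and 489 in knockout libraries on HFD (log2 3.87, SE 0.34, adjusted p = 3.6e-06 by limma). On SD it had 105 and 100 against 245 and 245, which was not called (log2 1.25, adjusted p = 0.055). The summed markers of macrophages and of fibroblasts and progenitors had the same order of groups as Hk3 and Eno2, with WT on HFD lowest and knockout on HFD highest by group mean, and their part in these rises was not tested.

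The falls were Ldhb, Tpi1 and Pgam1. Ldhb, the heart-type lactate dehydrogenase subunit, had 703 and 823 in WT and 307 and 284 in knockout libraries on HFD (log2 -1.36, SE 0.22, adjusted p = 0.00046 by limma). Tpi1, the triose phosphate isomerase, had 3675 and 3619 against 2695 and 1234 (log2 -1.0, adjusted p = 0.013), and Pgam1, the phosphoglycerate mutase, had 679 and 735 against 478 and 387 (log2 -0.71, adjusted p = 0.013). For each of them both knockout libraries were below both WT libraries. The calls of Tpi1 and Pgam1 were lost without either WT library on HFD or the second knockout library on HFD, and also in 5 of 13 other settings for Tpi1 and in 3 for Pgam1, while that of Ldhb held in all 13 and without each library. In WT mice Tpi1 (log2 0.90) and Pgam1 (log2 0.88) rose on HFD, and Hk3 (log2 -1.98) and Eno2 (log2 -1.48) fell. Of these diet calls, that of Hk3 held in all 13 other settings and without each library. That of Tpi1 was lost in 7 settings and without any 1 of the 4 WT libraries, that of Pgam1 in 3 settings and without the first WT library on SD or either WT library on HFD, and that of Eno2 in no setting but without either WT library on SD or the first WT library on HFD. Gpi1, the isomerase between hexokinase and phosphofructokinase, showed no call, with 2716 and 2847 in WT and 3093 and 2533 in knockout libraries on HFD. Pfkm had 444 and 420 against 367 and 258 (adjusted p = 0.13 by limma), Eno3 had 59 and 47 against 81 and 95 (adjusted p = 0.15), and Aldoc never exceeded 12.

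**Figure D5:**
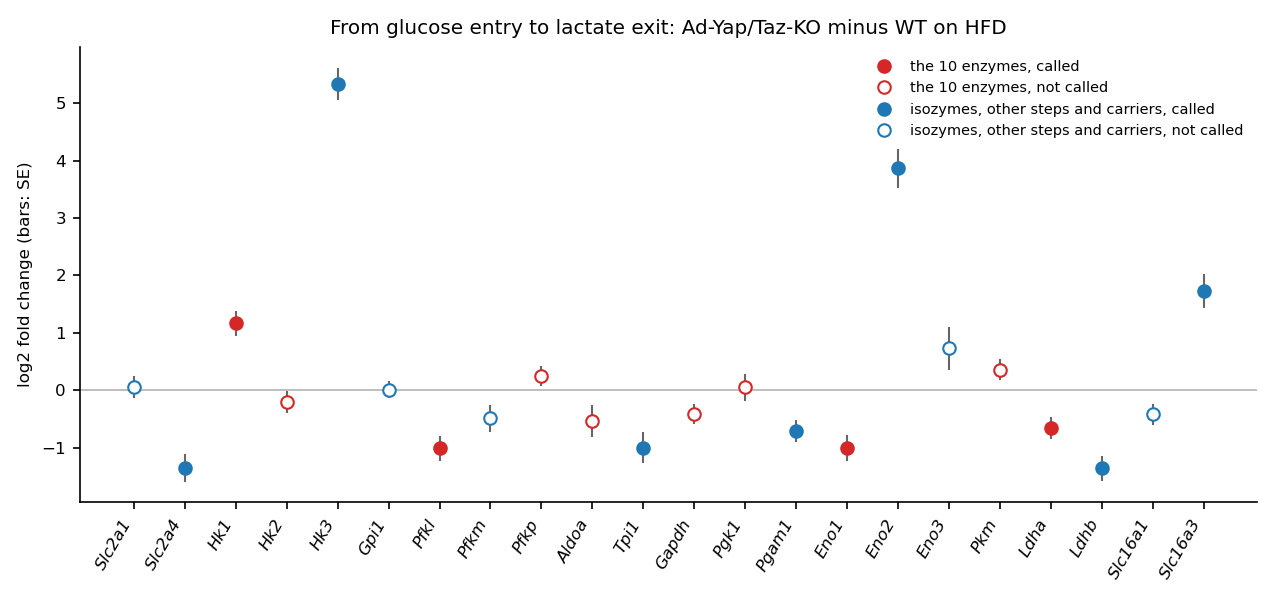
Log2 fold changes with their SE (bars) between knockout and WT on HFD (limma), from glucose carriers through the enzymes to lactate carriers in pathway order, with filled points for called differences. Hk3 at 5.34 and Eno2 at 3.87 lie above all others, and Pfkl, Tpi1 and Eno1 lie near -1.

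Ratios between isozymes do not depend on the scaling of a library. They were compared between the 4 knockout and the 4 WT libraries, and between the 4 HFD and the 4 SD libraries, in 12 two-sided exact permutation tests over 6 pairs, whose smallest possible p is 0.0286. None passed after adjustment, with a lowest adjusted p of 0.229, and with so few libraries a single ratio could not have passed. Pfkm was between 0.211 and 0.288 of Pfkl in WT and between 0.296 and 0.357 in knockout libraries, without overlap (log2 difference 0.46, exact permutation p = 0.0286, adjusted p = 0.229). The ratio of Pfkp to Pfkl lay between 1.01 and 1.36 in WT and between 1.3 and 3.35 in knockout libraries (log2 difference 0.82, exact permutation p = 0.0571). On the normalized counts, Hk2 exceeded Hk1 in every library, by 9.79-fold and 11.4-fold in WT mice on HFD and by 5.21-fold and 3.2-fold in knockout mice on HFD. Ldhb was between 0.0535 and 0.111 of Ldha over the 8 libraries.

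Carriers at both ends of the pathway changed on HFD. Slc2a4, the insulin-regulated carrier GLUT4, had 2015 and 2055 in WT and 1058 and 604 in knockout libraries (log2 -1.35, SE 0.24, adjusted p = 0.0011 by limma). Slc2a1, the constitutive carrier GLUT1, had 1289 and 1288 against 1610 and 1121, with overlap and no call. Slc16a3, the lactate exporter MCT4, had 66 and 104 in WT and 271 and 282 in knockout libraries (log2 1.73, SE 0.30, adjusted p = 0.00096 by limma), whereas Slc16a1, the monocarboxylate carrier MCT1, had 1370 and 1378 against 1133 and 928 and was not called (adjusted p = 0.089). Of these carriers and their partner, 7 genes in all, 1 rose and 3 fell, the falls being Slc2a4, Bsg (basigin, the chaperone of lactate carriers) and Slc16a7, which was named after its values were seen. The call of Bsg was lost in 4 of 13 other settings (log2 up to -0.40) and without the first WT or the second knockout library on HFD, and those of Slc2a4 and Slc16a3 in none of these. Over all genes tested 17.1% were called higher and 15.1% lower in this comparison, in which all 10 macrophage markers rose and 7 of the 8 adipocyte markers fell, and the part of these markers was not tested. None of the 7 was called on SD.

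The enzymes that set fructose 2,6-bisphosphate, an activator of phosphofructokinase, included Pfkfb3, with 29049 and 30342 in WT and 17817 and 8989 in knockout libraries on HFD (log2 -1.23, SE 0.28, adjusted p = 0.0052 by limma), a call lost by quantile normalization (log2 -0.61, adjusted p = 0.074). Pfkfb1 fell too (log2 -0.80, adjusted p = 0.018), a call lost in 3 of 13 other settings (log2 up to -0.41) and without either WT library or the second knockout library on HFD, and the other 3 of 5 tested were not called. Of the 7 pentose phosphate enzymes, which branch off at glucose 6-phosphate and yield NADPH, 5 fell and none rose, with a median of -0.89, where 15.1% of all genes tested were called lower. In the same comparison 7 of the 8 adipocyte markers fell, with a median of -1.54, and their part was not tested. G6pdx, the entry enzyme, had 6792 and 6768 in WT and 2413 and 1395 in knockout libraries on HFD (log2 -1.89, SE 0.22, adjusted p = 4.2e-05 by limma). On SD it had 2081 and 2381 in WT and 1999 and 2481 in knockout libraries, with overlap. G6pdx (log2 1.61), Pgd (log2 1.44) and Rpe (log2 0.91) rose on HFD in WT mice, and none of the 7 was called between diets in knockout mice. The WT diet call of G6pdx held in all 13 other settings and without each library. That of Rpe was lost in 4 settings and without any 1 of the 4 WT libraries, and that of Pgd with the WT libraries on HFD averaged and without the first WT library on SD or the second on HFD.

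Of 6 factors known to act on these genes, 3 fell and none rose in knockout mice on HFD, beside 15.1% of all genes called lower and 7 of the 8 adipocyte markers, whose part was not tested. Hif1a, the oxygen-regulated subunit of HIF-1, had 7221 and 6950 in WT and 4192 and 3934 in knockout libraries (log2 -0.80, SE 0.15, adjusted p = 0.0013 by limma), a call that was lost in each of the 3 other scalings (log2 up to -0.42). Mlxipl, the carbohydrate-responsive factor ChREBP, had 1130 and 1180 against 482 and 344 (log2 -1.50, adjusted p = 0.00073), and its partner Mlx fell as well (log2 -0.94, adjusted p = 0.013). The call of Mlx was lost in 3 of 13 other settings and without either WT library or the second knockout library on HFD, and that of Mlxipl in none of these. Of 12 HIF targets outside glycolysis, 4 fell, 1 rose (Car9, with 12 and 19 against 49 and 59, named after its values were seen) and 7 were not called, beside 32.2% of all genes called. Bnip3 (log2 -1.60), Adm (log2 -1.76) and Vegfa (log2 -1.19) were among those that fell, and the median of the 12 was -0.10, near the 0.095 of all genes. On SD, Vegfa (log2 -1.29) and Adm (log2 -1.37) fell in knockout mice, and no factor of the 6 was called. The call of Adm on SD was lost without the second WT library on SD.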

How the data were processed

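RNA from isolated epididymal adipocytes was sequenced after ribosomal depletion with a stranded kit. Per the labels and the methods, the authors trimmed single-end reads with Reaper, aligned them to GRCm38 (mm10) with STAR 2.5.2b and counted them on exons with featureCounts 1.5.1, leaving out reads over several genes or places. Whether counting used strand is not given in the sources used here. The authors tested with DESeq2 1.14.1. The deposited values (unit recorded as score) are whole numbers from the authors' normalized count matrix. Their pattern at low values fits counts scaled by 1 factor for each library and then rounded, but the method is not given in the sources used here. Whole reads could not be recovered from them, so count tests were not run.

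Here, log2(value + 1) was fitted for 18800 genes, those whose mean reached 5, with limma 3.58.1 in R 4.3.3, with 4 group means, a trended prior (4 residual and 8.59 prior degrees of freedom) and Benjamini-Hochberg adjustment in each of 5 contrasts. On this scale fold changes of low genes are understated. A call needed an adjusted p of at most 0.05 and an absolute log2 fold change of at least 0.59. Ratios of isozymes were tested by exact permutation with scipy 1.17.1. Positions and shared windows came from GENCODE vM21 (GRCm38), which held 30259 of the 30387 identifiers, and promoters from RefSeq. Coordinates are counted from 1.

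The enzymes and the 15 lists beside them were chosen with earlier results of these data known. All 10 enzymes were named in each contrast that called them. Other genes named were isozymes and enzymes at a shared step, 4 carriers, Hif1a, and at most 3 called genes per list with the lowest adjusted p on HFD. Exceptions are stated, and 1 enzyme of these lists is not reported here. The other settings covered pseudocount, filter, scaling, samples in the fit, prior, block, fold limit, GC content and length, and each library left out.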

Additional observations from a re-analysis of the deposited data

Results flagged for a closer look

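For 2 of the 10 enzymes the difference between Ad-Yap/Taz-KO and WT mice was not the same on both diets by the interaction term of limma. The knockout effect on HFD minus that on SD, in log2 units, was 1.14 for Hk1 (adjusted p = 0.027) and -1.20 for Eno1 (adjusted p = 0.027). Hk1 was higher in the knockout on HFD and Eno1 lower, and neither gene was called on SD. Over all genes tested 17.4% had a called interaction, so 2 of 10 is near that share, which itself moved when single libraries were left out. The call of Hk1 was lost without 6 of the 8 libraries and that of Eno1 without 5.

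The same term was called for other enzymes of the pathway. It was 2.57 for Hk3 (adjusted p = 0.0033 by limma) and 2.62 for Eno2 (adjusted p = 0.006), whose knockout effects were larger on HFD. It was -1.15 for Ldhb (adjusted p = 0.025 by limma), -1.21 for Tpi1 (adjusted p = 0.047) and -1.42 for Pgam1 (adjusted p = 0.0074).

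Among carriers the difference of effects was -1.18 for Slc2a4 (adjusted p = 0.034 by limma), -0.85 for Bsg (adjusted p = 0.044) and 2.26 for Slc16a3 (adjusted p = 0.0073). It was -0.95 for Hif1a (adjusted p = 0.012 by limma) and -1.34 for Bnip3, a mitophagy receptor (adjusted p = 0.0074). Of the 12 HIF targets outside glycolysis, Bnip3 was the 1 called lower in this term, and 2 were called higher. Of the pentose phosphate enzymes, G6pdx had -1.89 (adjusted p = 0.0041 by limma), Rpe had -1.82 (adjusted p = 0.0052) and Pgd had -1.57 (adjusted p = 0.017). Of these 15 genes, Hk3, Eno2, G6pdx and Rpe kept the call in all 12 other settings and without each of the 8 libraries. Markers of cell types moved in the same contrast, with 9 of 10 macrophage, 6 of 7 fibroblast and progenitor, 5 of 6 endothelial and 4 of 5 erythroid markers higher and 6 of 8 adipocyte markers lower, and their part was not tested.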

How the results depend on the processing

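The number of the 10 enzymes called between genotypes on HFD was 4, and 3 to 6 in 13 other settings. On SD it fell from 1 to 0 with a pseudocount of 0.1, without a filter, with upper-quartile scaling, with the replicate block and with the WT libraries on HFD averaged. Between diets in WT it rose from 3 to 5 with a pseudocount of 8, with the mean required to reach 50 and with only the groups compared, and to 7 with the GC and length trend removed (18750 genes). There it fell to 1 without a filter and to 0 with the WT libraries on HFD averaged. In Ad-Yap/Taz-KO it was 0 in each setting that kept all libraries. The interaction count fell from 2 to 0 without a filter and with averaging, to 1 when scaled to the same total, by upper quartile or by quantiles, and rose to 5 with the GC and length trend removed, which lost Hk1. Without each library in turn the counts were 2 to 6 between genotypes on HFD, 0 to 1 on SD, 0 to 5 between diets in WT, 0 to 3 in Ad-Yap/Taz-KO and 0 to 6 for the interaction. On HFD the count was 6 without the first Ad-Yap/Taz-KO library on HFD, which added Aldoa and Gapdh, and 2 without the second WT library on HFD. Between diets in WT it was 5 without any 1 of the 4 Ad-Yap/Taz-KO libraries, which added Pfkl and Pgk1. For the interaction it was 6 without the first Ad-Yap/Taz-KO library on HFD, 1 (Eno1) without the second, and 3 without the first Ad-Yap/Taz-KO library on SD. Where a group kept 1 library, its spread was taken from the other groups, and calls over all genes moved in such fits as well.

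Signs turned for values that were not called. Between genotypes on HFD, Hk2 became 0.19 at the same total, 0.18 by upper quartile and 0.27 by quantiles, and lay between -0.40 and 0.01 without each library. Aldoa became 0.07 by quantiles. Pgk1 became -0.25 with the GC and length trend removed and lay between -0.15 and 0.24 without each library. Between diets in WT, Pfkp became -0.06 at the same total, and Ldha -0.17 at the same total, -0.08 by upper quartile and -0.02 by quantiles. Isozyme ratios without each library ranged between diets from -0.21 to 0.37 for Pfkp to Pfkl, from -0.23 to 0.02 for Pfkm to Pfkl, from -0.13 to 0.83 for Aldoc to Aldoa and from -0.02 to 0.33 for Ldhb to Ldha. Between genotypes they ranged from -0.17 to 1.00 for Aldoc to Aldoa and from -0.06 to 0.75 for Eno3 to Eno1. Of the values for single genes, ratios and lists under another setting, 2371 kept direction and side of the threshold, or moved by less than the spread, 226 lost the call, 29 gained it, 376 moved and 19 turned.

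Library numbers did not pair the samples, with correlations of replicate differences from -0.107 to 0.040. The replicate block gave 4, 0, 2, 0 and 2 enzymes in the order of contrasts above. Over all genes, scaling to the same total moved the median between genotypes on HFD from 0.095 to 0.476, and calls from 3213 higher and 2840 lower to 4622 and 1365. Removing the GC and length trend gave 2493 and 4076. Between diets in WT, 1643 higher and 1734 lower became 469 and 3569 at the same total. Calls between diets in Ad-Yap/Taz-KO were 202, with 72 higher and 130 lower. They became 370 by upper quartile (274 higher and 96 lower), 330 with a pseudocount of 8, 112 with 0.1 or the replicate block, and 0 by limma with only the groups compared (2098 genes at an unadjusted p under 0.05). Without a filter calls went from 886 to 438 between genotypes on SD, from 3377 to 1701 between diets in WT, from 202 to 3 in Ad-Yap/Taz-KO and from 3274 to 721 for the interaction. By quantiles they were 2186 between diets in WT and 2121 for the interaction. With the WT libraries on HFD averaged they were 3521, against 6053, between genotypes on HFD, and 632, 41 and 678 in the last 3 contrasts. edgeR and DESeq2 were planned and not run, since whole reads could not be recovered.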

Other observations

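Outside all lists, 5 genes followed the mean centred log2 value of the 10 enzymes most closely among 12003 genes whose mean reached 50. Over the 8 libraries Pearson's r was 0.981 for Nono, 0.978 for Slc25a39, 0.976 for Sh3tc1, 0.971 for Tmem120a and 0.970 for Atp5o. These libraries share groups, depth and cell makeup, and the values are a description. Between diets in Ad-Yap/Taz-KO mice, where none of the enzymes was called, Bnip3 fell by 0.88 on the log2 scale on HFD (adjusted p = 0.041 by limma), and this call was lost in 6 of 13 other settings and without any 1 of the 4 WT libraries or the second Ad-Yap/Taz-KO library on either diet.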
